A study of Mus musculus with 35 samples.

Results

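DNA transposons are the class of mobile elements that move as DNA. In male germ cells of mice with a germ cell-specific Smg6 knockout and of control littermates, 197 of their subfamilies were counted. They are the rows of the deposited long RNA tables that carry the class name DNA, 197 of 1146 transposable element rows and of 25557 rows in all, and all 197 names also stand in the repeat table of the small RNA libraries. A subfamily row pools the reads of all its copies across the mouse genome, so it has no single position. Subfamilies with at least 10 counts in total numbered 187 in pachytene spermatocytes (Spc), 189 in round spermatids (RS), 188 in isolated chromatoid bodies (CB), 126 in small RNA of Spc and 115 in small RNA of RS. By the family field of the row names, 73 subfamilies belong to hAT-Charlie, 44 to TcMar-Tigger, 31 to hAT-Tip100, 11 to DNA with no closer family, 8 each to TcMar-Tc2 and hAT-Blackjack and 7 to hAT. MULE-MuDR and TcMar have 4 each, TcMar-Mariner 3, PiggyBac 2, and MuDR and TcMar-Pogo 1 each.

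Smg6-cKO mice carried homozygous floxed Smg6 alleles and Ngn3Cre, a Cre transgene that becomes active in spermatogonia, on a mixed C57Bl/6J and SV129 background. Control (CTRL) animals were littermates with homozygous or heterozygous floxed alleles and no Cre, and all animals were adult. Per the study's methods, each preparation of cells or of CBs took several testes, so more than 1 animal. Long RNA was sequenced from Spc and RS enriched by sedimentation (3 libraries of each genotype and cell fraction) and from CBs precipitated with an antibody to DDX4 (3 Smg6-cKO and 4 CTRL libraries). Small RNA was sequenced from Spc (5 libraries of each genotype, where the study's methods name 3 biological replicates, so some may share a preparation) and RS (3 of each).

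A DNA transposon of the autonomous kind encodes a transposase, an enzyme that binds the terminal inverted repeats of the element, cuts it out and pastes it elsewhere. The hAT families (Charlie, Tip100, Blackjack), the Tc1/mariner families (Tigger, Tc2, Mariner), piggyBac and the Mutator-like elements are each defined by their own kind of transposase. Many subfamilies, such as the MER elements, are short internally deleted derivatives with no coding sequence of their own, and in mice the DNA transposons are regarded as inactive remnants, many of which lie in introns and untranslated regions of genes. In male germ cells, PIWI-interacting RNAs (piRNAs) guide PIWI proteins to transposon and other transcripts. The CB is a cytoplasmic granule of round spermatids that gathers piRNA factors, and SMG6 is the endonuclease of nonsense-mediated RNA decay.

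Total counts were 38129415 to 49940226 in the Spc and RS libraries, 3965541 to 16699210 in the CB libraries and 1129056 to 2807536 in the repeat table of the small RNA libraries. The gene-level count of Smg6 did not differ beyond the spread of the libraries in Spc (log2 fold change 0.22, SE 0.16, adjusted p = 0.361), RS (0.05, SE 0.16, adjusted p = 0.805) or CB (-0.12, SE 0.18, adjusted p = 0.651). That count covers all exons, so it cannot check the removal of a single exon. All 10 late spermatid markers were lower in Smg6-cKO in Spc, RS and CB, with medians of -2.25, -3.91 and -2.80, and in RS their summed level was 2180 to 2330 CPM (counts scaled to a common library total) against 22500 to 27900 in CTRL. All 10 macrophage markers were higher in Smg6-cKO RS, at a summed 206 to 354 CPM against 23.7 to 31.4, and all 7 Leydig cell markers were higher there, at 35.5 to 379 against 6.19 to 7.20. Of the other lists, 6 of 8 round spermatid markers were lower in Smg6-cKO RS (median -1.24), and 5 of 8 pachytene spermatocyte markers (median 0.82), 7 of 9 Sertoli cell markers (median 1.24) and 4 of 5 erythroid markers (median 2.79, a summed 72.0 to 277 CPM against 15.8 to 18.4) higher. Against these directions, 1 round spermatid marker was called higher and 1 pachytene spermatocyte marker lower. In Spc, 9 of 10 macrophage markers were higher and 1 (Mrc1) lower, and all 9 Sertoli cell markers were lower. Leydig cell markers summed to 604 to 1280 CPM in Smg6-cKO Spc against 124 to 445 in CTRL Spc, with 2 of 7 called higher. Erythroid markers summed to 1.58 to 3.53 against 11.1 to 22.3, with 1 of 5 (Alas2) called lower. The median log2 fold change of the erythroid list was 0.34, opposite in sign to the summed level. The part of these other cells in the results below was not tested. In bulk RNA, fewer cells of a type and less RNA per cell cannot be told apart.

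Counts were spread unevenly over the subfamilies. In Spc, the 8 most counted subfamilies held 45.8% of DNA transposon counts, led by URR1B, URR1A and MER5A, all of the hAT-Charlie family. The corresponding 8 held 45.1% in RS, 49.1% in CB and 63.5% in small RNA, where Charlie1a, MER20, URR1B and MER94B led. At the other end, 5 subfamilies had no count in Spc, 5 in RS, 3 in CB and 20 in small RNA. Values are not per length, so subfamilies are compared here between libraries and not with each other.

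As a share of transposable element counts, DNA transposons took 3.52% ± 0.0503 (SD, n = 3) in Smg6-cKO Spc and 3.70% ± 0.0678 (n = 3) in CTRL Spc. In RS the shares were 3.19% ± 0.0734 (n = 3) and 3.42% ± 0.0788 (n = 3). The groups did not overlap in either fraction, and the exact two-sided permutation p was 0.1 in both, the smallest that 3 against 3 libraries allow. In CB the share was 1.66% ± 0.314 (n = 3) in Smg6-cKO and 2.58% ± 0.489 (n = 4) in CTRL (exact permutation p = 0.0571, smallest possible 0.0286). The highest Smg6-cKO share, 1.86%, lay just under the lowest CTRL share, 1.92%. As a share of all counts, genes included, the values were 0.192% and 0.199% in Spc (exact p = 0.9), 0.159% and 0.157% in RS (exact p = 1.0) and 0.533% and 0.807% in CB (exact p = 0.143), so the RS difference had the opposite sign on that base. Among the Smg6-cKO libraries, Spc library 1 and RS library 3 had the lowest element percentages of all counts in their fractions, 4.49% and 3.88%.

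In small RNA, DNA transposons took 7.02% ± 0.264 (n = 5) of repeat counts in Smg6-cKO Spc and 6.93% ± 0.18 (n = 5) in CTRL Spc (exact permutation p = 0.492), and 7.40% ± 0.367 (n = 3) in Smg6-cKO RS and 7.56% ± 0.0736 (n = 3) in CTRL RS (exact permutation p = 0.5). CTRL RS lay above CTRL Spc in every library (exact permutation p = 0.0179, the smallest possible).

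**Figure D1:**
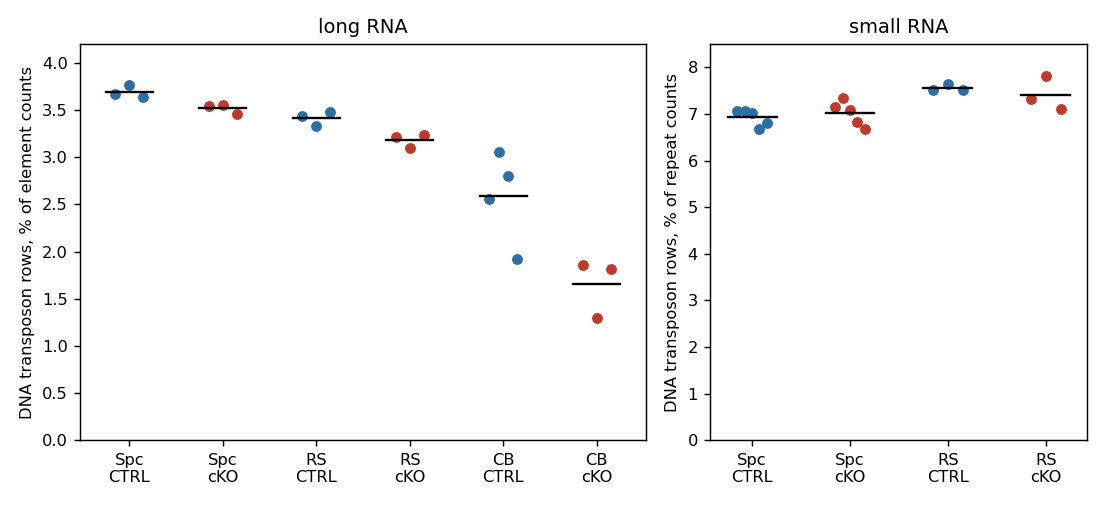
DNA transposon share of transposable element counts (percent, y axis from 0) for each library, by cell fraction and genotype, with long RNA and small RNA in separate panels; each point is 1 library and the bar is the group mean. In long RNA the Smg6-cKO points lie below the CTRL points in Spc, RS and CB, and in small RNA the genotypes overlap.

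In the quasi-likelihood test of edgeR, with p-values adjusted by the Benjamini-Hochberg method over all genes and elements and called at an adjusted p of at most 0.05, 70 of 189 subfamilies were lower and 3 were higher in Smg6-cKO RS. The background over all 20892 features was 30% lower and 35.3% higher, against 37.0% and 1.59% of the subfamilies. The median log2 fold change was -0.49 for DNA transposons and 0.15 for all features. Other elements lay close to them, with medians of -0.45 for LINE, -0.34 for SINE and -0.42 for LTR subfamilies, and -0.46 and -0.49 for the old MIR and L2 families, while the median of genes was 0.23.

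The direction over the class depended on what the counts were scaled to. The scaling used throughout is the trimmed mean of M values (TMM), which sets the bulk of genes and elements together to no change. With scaling to the library total alone, 15 subfamilies (7.94%) were lower and 14 (7.41%) higher in RS, against 16.1% and 52.5% of all features, the DNA median was 0.06 and that of all features 0.71. With TMM over elements alone, 24 (12.7%) were lower and 16 (8.47%) higher, against 14.7% and 13.9% of elements of any class, with a median of -0.04. Across these, 14 of 189 subfamilies were lower under all 3 scalings and with each library left out, and so were 80 of 1085 elements of any class (7.37%), a share near that of the subfamilies. The count of 70 also fell to 43 without CTRL RS library 1 and to 41 without CTRL RS library 3.

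**Figure D2:**
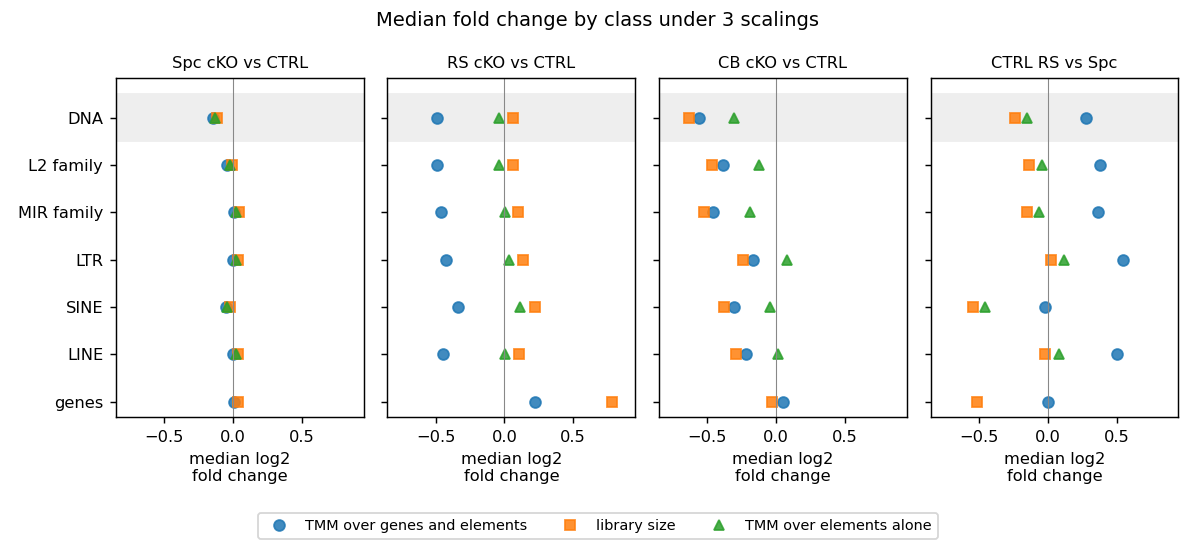
Median log2 fold change (x axis) of genes, of LINE, SINE and LTR subfamilies, of the MIR and L2 families and of DNA transposons (shaded row) in 4 comparisons, with circles for TMM over genes and elements, squares for library size and triangles for TMM over elements alone. In RS the DNA median moves from -0.49 to 0.06 and -0.04 with the scaling, and in CB it stays negative at -0.56, -0.63 and -0.30.

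The 14 subfamilies that were lower in Smg6-cKO RS under every scaling and without any 1 library were Charlie23a, Eulor9C, FordPrefect, Kanga1, Kanga1a, Kanga1d, MER103C, MER126, MER135, MER58D, MamRep488, Ricksha_0, Tigger13a and Zaphod2. By family, 3 are TcMar-Tc2 (the Kanga elements), 3 hAT-Charlie, 3 hAT-Tip100 and 3 of no closer family (Eulor9C, MER126 and MER135), beside 1 Mutator-like and 1 Tigger element. Kanga1, Kanga1a, Kanga1d, MER126, MER135, MER58D and Tigger13a were also higher in CTRL RS than in CTRL Spc under every scaling. Both comparisons use the CTRL RS libraries. The study reports that Smg6-cKO spermatogenesis stopped in round spermatids, with no elongating spermatids. The part of stage in these calls was not tested. Values below are normalized counts, the counts scaled by TMM to the mean library of the table. The authors' counting divides reads that match several places among them. How many reads related subfamilies such as Kanga1, Kanga1a and Kanga1d share was not tested, so their separate values may be uncertain.

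Kanga1a, a Tc2-type element, had the lowest fold change, with 130.5, 159.3 and 95.7 normalized counts in the Smg6-cKO RS libraries and 843.2, 1040.6 and 822.5 in the CTRL RS libraries (log2 fold change -2.81, SE 0.21, adjusted p = 8.65e-06). MER58D, a non-autonomous hAT-Charlie element, had 147.6, 125.7 and 98.9 against 595.3, 612.6 and 632.4 (log2 fold change -2.31, SE 0.18, adjusted p = 1.07e-05). In both, every Smg6-cKO library lay far below every CTRL library. Kanga1d had 121.1, 153.1 and 102.1 against 462.1, 370.6 and 332.1 (log2 fold change -1.63, SE 0.21, adjusted p = 0.000233), and Kanga1 had 249.9, 253.1 and 191.3 against 513.1, 643.8 and 513.3 (log2 fold change -1.27, SE 0.17, adjusted p = 0.000288). MER135, an element with no closer family, was at 70.8, 63.7 and 45.8 against 166.8, 164.7 and 169.8 (log2 fold change -1.47, SE 0.23, adjusted p = 0.00065). The groups of these 3 did not overlap either.

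Among the Tip100 elements, Zaphod2 had 209.8, 212.4 and 183.3 normalized counts in Smg6-cKO RS and 429.7, 420.5 and 532.3 in CTRL RS (log2 fold change -1.19, SE 0.16, adjusted p = 0.000273). FordPrefect had 455.5, 555.0 and 475.1 against 1013.4, 854.7 and 953.1 (log2 fold change -0.93, SE 0.13, adjusted p = 0.000328). Tigger13a of the Tigger family had 178.3, 171.7 and 146.3 against 397.3, 374.3 and 411.9 (log2 fold change -1.25, SE 0.16, adjusted p = 0.00017). In all 3, every Smg6-cKO library was below every CTRL library. Low-count members past a log2 fold change of 1.5 were Charlie23a (-1.54), Eulor9C (-1.58), MER126 (-1.54), MamRep488 (-1.83) and Ricksha_0 (-1.77), with mean normalized counts of 20.9 to 77.3 over the RS libraries. Eulor1 and MER97b were called as well, on 2 to 10 counts and 1 to 16 counts per library.

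Kanga11a, another Tc2-type element, was called lower in RS (log2 fold change -1.79, SE 0.43, adjusted p = 0.0063), but with a split among the controls. The Smg6-cKO libraries had 226.9, 218.6 and 213.0 normalized counts, CTRL libraries 1 and 2 had 1051.7 and 965.7, and CTRL library 3 had 266.2. In Spc, library 2 of each genotype stood at 1946.3 and 1943.9 and the other 4 libraries at 451.6 to 561.7. The high libraries thus occur in both genotypes, and with TMM over elements alone the RS call was lost (adjusted p = 0.0557).

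The 3 subfamilies that were higher in Smg6-cKO RS were hAT-N1_Mam, MER102a and Tigger16a. hAT-N1_Mam, a non-autonomous hAT element, had 278.1, 281.5 and 263.7 normalized counts against 117.0, 118.5 and 148.3 (log2 fold change 1.1, SE 0.18, adjusted p = 0.000713). MER102a (log2 fold change 0.50, SE 0.18, adjusted p = 0.0393) and Tigger16a (0.42, SE 0.16, adjusted p = 0.0389) changed less. All 3 were higher under every scaling, as were 29 of 1085 elements of any class (2.67%). Only hAT-N1_Mam was called with each library left out, and without Smg6-cKO library 1 or 2 or CTRL library 1 or 2 the count of higher subfamilies was 1.

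Of the 8 subfamilies most counted in CTRL Spc and RS, 6 were lower in Smg6-cKO RS, by log2 fold changes of -0.69 (MER20), -0.66 (MER2), -0.65 (MER5A), -0.64 (MER58C), -0.52 (RCHARR1) and -0.45 (URR1B). URR1A was at -0.37 (SE 0.18, adjusted p = 0.0941) and Tigger1 at -0.54 (SE 0.49, adjusted p = 0.354). In MER20, the Smg6-cKO libraries had 3013, 2736 and 1876 normalized counts and the CTRL libraries 4178, 4048 and 4105. Library 3 of Smg6-cKO, the library with the low element percentage, was the lowest in MER20, MER2, MER5A, RCHARR1, URR1A and URR1B and the highest in MER58C. None of these 6 calls held with scaling to the library total, under which MER20, MER2, MER5A and MER58C were at -0.08 to -0.13 (adjusted p = 0.431 to 0.652) and RCHARR1 and URR1B at 0.04 and 0.11. With TMM over elements alone, MER58C, RCHARR1 and URR1B were not called either, and URR1B was not called without any 1 CTRL RS library. Tigger1 varied within groups, with 910.9, 2620.9 and 2718.1 in Smg6-cKO and 3861.5, 1253.9 and 3974.6 in CTRL.

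**Figure D3:**
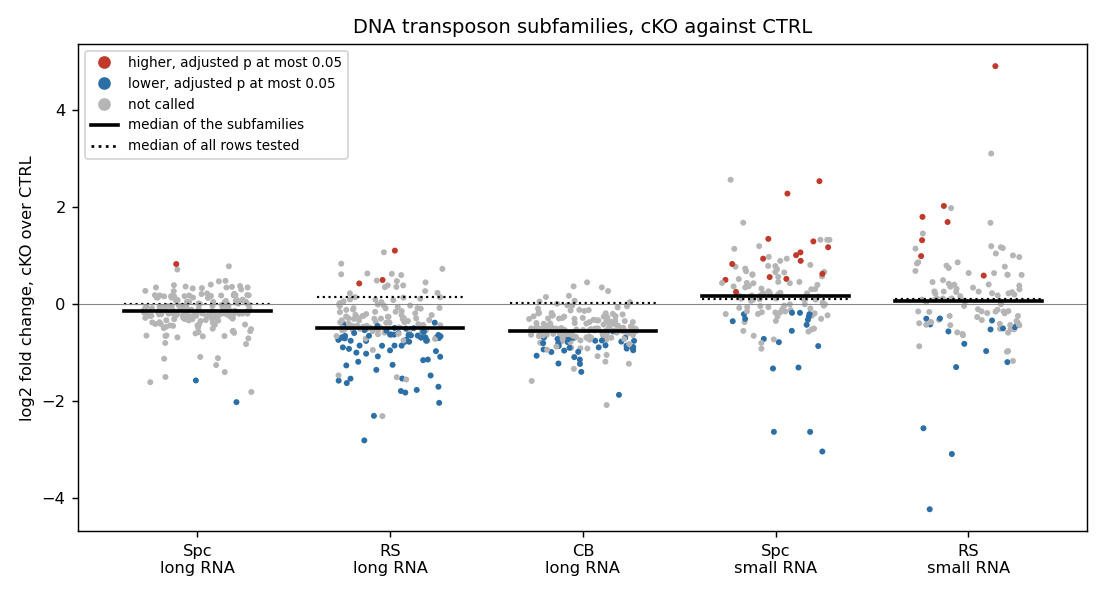
Log2 fold change (y axis) of each DNA transposon subfamily for Smg6-cKO over CTRL in long RNA of Spc, RS and CB and small RNA of Spc and RS (x axis); each point is 1 subfamily, red and blue points passed adjusted p at most 0.05 as higher and lower, and solid and dotted lines are the medians of the subfamilies and of all features. Most called points in RS and CB lie below 0, Spc has 3 called points, and the top point of small RNA RS is MER104, whose CTRL libraries all had 0 counts, so its height is not a bound or a measured fold.

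In Spc, 1 subfamily was higher and 2 were lower of 187 (0.535% and 1.07%), against a background of 11.6% higher and 11.7% lower over 20696 features. The median log2 fold change was -0.15 for DNA transposons and 0.01 for all features, and 35 subfamilies (18.7%) had genotype groups that did not overlap, against 43.5% of all features. All 3 calls held under every scaling and with each library left out. Kanga1a had 83.2, 97.1 and 55.2 normalized counts in Smg6-cKO Spc and 425.6, 227.4 and 304.6 in CTRL Spc (log2 fold change -2.02, SE 0.32, adjusted p = 0.00625). Charlie19a, a hAT-Charlie element, had 117.0, 175.6 and 113.9 against 393.0, 444.1 and 376.2 (log2 fold change -1.58, SE 0.23, adjusted p = 0.0049). Both were low in all Smg6-cKO libraries with no overlap. hAT-N1_Mam had 486.1, 566.0 and 550.1 against 271.7, 298.2 and 335.0 (log2 fold change 0.82, SE 0.16, adjusted p = 0.0129). Kanga1a and hAT-N1_Mam therefore had the same direction in Spc and RS. None of the 8 subfamilies most counted over CTRL Spc and RS together was called in Spc, with log2 fold changes of -0.21 to 0.34.

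In isolated CBs, 34 of 188 subfamilies (18.1%) were lower in Smg6-cKO and 0 were higher, against a background of 15.1% lower and 12.3% higher over 19334 features. At an unadjusted p of at most 0.05, 81 subfamilies (43.1%) passed in either direction, against 38.9% of all features, and DESeq2 also called 0 higher. The DNA median was -0.56 and that of all features 0.02. All 10 late spermatid markers were lower in these CBs, at a summed 282 to 398 CPM against 1710 to 4300 in CTRL. So were 6 of 8 round spermatid markers (median -0.94, a summed 196 to 305 CPM against 381 to 604). Higher were 8 of 10 macrophage markers (12.6 to 60.9 against 10.1 to 13.4), all 7 Leydig cell markers and 3 of the 8 Sertoli cell markers tested. The part of these markers was not tested. The DNA median lay below those of LINE (-0.22), SINE (-0.31) and LTR (-0.17) subfamilies, and 178 of 188 log2 fold changes were negative. With TMM over elements alone, 14 (7.45%) were lower and 0 higher, against 2.54% and 7.16% of elements of any class, with a DNA median of -0.30. The count of 34 moved with single libraries. It was 77 without Smg6-cKO library MKO2, 7 without MKO3 and 4 without MKO4, and it was 13, 21 and 8 without the CTRL libraries MCTRL1, MCTRL5 and MVHCTRL2.

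Charlie19a, Kanga1a and MER53 were lower in CB under all 3 scalings and with each library left out, which held for 7 of 1104 elements of any class (0.634%). Charlie19a had 79.6, 57.2 and 61.6 normalized counts in the Smg6-cKO CBs and 113.1, 189.7, 197.3 and 120.3 in the CTRL CBs (log2 fold change -1.23, SE 0.26, adjusted p = 0.00291). Kanga1a had 62.1, 35.4 and 48.4 against 93.2, 122.4, 144.7 and 106.9 (log2 fold change -1.23, SE 0.26, adjusted p = 0.00236). MER53, a short hAT element, had 265.8, 201.7 and 157.4 against 410.9, 373.6, 540.3 and 319.3 (log2 fold change -0.99, SE 0.23, adjusted p = 0.00512). In all 3 the highest Smg6-cKO library lay below the lowest CTRL library. Kanga11a (-1.09), Zaphod (-1.07) and MER63D (-0.99) were the other subfamilies with the lowest fold changes at 100 or more normalized counts, and the groups of MER63D overlapped. Kanga11a and Zaphod were not called without MKO4 (adjusted p = 0.0506 and 0.0561). MER63D was not called without MKO3, MKO4 or MVHCTRL2 (adjusted p = 0.0587 to 0.0998) or with TMM over elements alone (adjusted p = 0.0569). nhAT5a_ML had 3, 2 and 2 counts in Smg6-cKO and 24, 17, 21 and 7 in CTRL. Of the 8 subfamilies most counted in CTRL Spc and RS, which are not the 8 most counted in CB, MER58C was lower (log2 fold change -0.72, SE 0.25, adjusted p = 0.0422), and the others lay at -0.29 to -0.57 without passing. The call of MER58C was lost with TMM over elements alone (adjusted p = 0.0959), by DESeq2 (adjusted p = 0.0576), with at least 10 counts in 3 libraries (adjusted p = 0.0601) and without MKO3, MKO4, MCTRL1, MCTRL5 or MVHCTRL2 (adjusted p = 0.0862 to 0.23).

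The CB libraries were made from other material and with another protocol than the cell libraries, so levels are not compared between them. Of the subfamilies lower in Smg6-cKO, 19 were called in both RS and CB, which is 27.1% of the 70 in RS and 55.9% of the 34 in CB. These 19 are 10.2% of the 187 subfamilies tested in both, and of all 18894 features tested in both 13.5% were lower in both. Kanga1, Kanga1a, Kanga11a, MER103C, MER53 and Zaphod were among these 19. Only Kanga1a and MER103C were lower under all 3 scalings in both RS and CB.

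In CTRL animals, the 187 subfamilies were also compared between RS and Spc. The cell type markers also differed between these fractions. All 7 Leydig cell markers (median log2 fold change -4.92) and all 9 Sertoli cell markers (-3.17) were lower in CTRL RS than in CTRL Spc. Of 5 erythroid markers, 4 were higher and 1 lower (median 4.28), and all 10 late spermatid markers were higher (2.74). The part of these markers in the stage differences was not tested. The deposited column names carry different trimming marks in the RS and Spc tables, so stage and table processing cannot be told apart. These fits scaled Spc and RS together, so a library's values differ slightly from those above. In CTRL, 54 subfamilies (28.9%) were higher in RS and 22 (11.8%) lower, against a background of 35.4% and 33.0% over 20319 features. The DNA median of 0.28 lay above that of all features (0.05) and below those of LINE (0.51) and LTR (0.55). With library size scaling 11 (5.88%) were higher and 48 (25.7%) lower, against 22.2% and 47.4% of all features (median -0.24, all features -0.47). With TMM over elements alone 29 (15.5%) were higher and 56 (29.9%) lower, against 28.1% and 25% of elements of any class (median -0.15). The class as a whole thus had no direction that all 3 scalings shared, and the subfamilies called under all 3 numbered 11 higher and 22 lower of 187, against 12.7% and 9.53% of 1070 elements of any class.

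The 11 that were higher in CTRL RS under all 3 scalings were Arthur1A, Arthur1C, Kanga1, Kanga1a, Kanga1d, MER121, MER126, MER135, MER58D, Tigger13a and Tigger8, and all were called with each library left out. Kanga1d had 498.0, 400.3 and 358.9 normalized counts in CTRL RS and 127.7, 92.9 and 112.3 in CTRL Spc (log2 fold change 1.92, SE 0.23, adjusted p = 2.14e-05). Kanga1a had 908.7, 1124.2 and 889.1 against 381.1, 207.0 and 277.1 (log2 fold change 1.76, SE 0.27, adjusted p = 0.000122). MER58D had 641.6, 661.9 and 683.6 against 307.7, 265.6 and 280.6 (log2 fold change 1.22, SE 0.16, adjusted p = 2.96e-05). In each, all CTRL RS libraries lay above all CTRL Spc libraries. The Tip100 elements Arthur1A and Arthur1C were higher by 1.55 (SE 0.31) and 1.54 (SE 0.30).

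Lower in CTRL RS under all 3 scalings were 22 subfamilies, 18 of them with each library left out. Tigger6b had 32.5, 41.8 and 30.1 normalized counts in RS and 191.0, 185.8 and 166.6 in Spc (log2 fold change -2.38, SE 0.30, adjusted p = 2.57e-05). Charlie24 had 129.8, 176.6 and 169.9 against 720.9, 814.0 and 834.8 (log2 fold change -2.32, SE 0.24, adjusted p = 6.9e-06), and Ricksha_c, a Mutator-like element, had 315.8, 347.8 and 352.1 against 885.8, 1047.9 and 979.1 (log2 fold change -1.52, SE 0.18, adjusted p = 1.61e-05). RS libraries were low without exception in these 3. MamTip2 (-1.49, SE 0.12), Ricksha (-1.49, SE 0.30), Charlie19a (-1.24, SE 0.23) and hAT-N1_Mam (-0.98, SE 0.15) belong to the same 22. UCON23, a hAT element, fell from 48.3, 50.5 and 56.1 normalized counts in Spc to 1.2, 4.0 and 6.8 in RS.

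In Smg6-cKO animals, 6 subfamilies (3.21%) were higher and 30 (16%) lower in RS than in Spc, against a background of 21.3% and 23.7%. With library size scaling 7 (3.74%) were higher and 25 (13.4%) lower, against 26.2% and 19.5% of all features, and with TMM over elements alone 23 (12.3%) were higher and 37 (19.8%) lower, against 20.7% and 20.2% of elements of any class. The DNA median was -0.14 and that of all features 0.06. Ricksha_c (log2 fold change -2.13, SE 0.18), Charlie24 (-2.25, SE 0.24), Charlie6 (-1.85, SE 0.18) and Tigger6b (-1.72, SE 0.28) were lower, and Kanga1a (0.87, SE 0.28, adjusted p = 0.0257) and Kanga1d (0.64, SE 0.23, adjusted p = 0.0422) were higher. Both of these calls were lost without some single libraries, that of Kanga1a without Smg6-cKO Spc library 1 or 3 or RS library 1 or 2 (adjusted p = 0.053 to 0.0945) and that of Kanga1d without any 1 of 7 libraries (adjusted p = 0.0503 to 0.152). Of the 6 higher calls, Charlie17b alone held with each library left out. In this comparison all 10 macrophage markers (median 2.23) and all 5 erythroid markers (median 6.5) were higher in RS and 6 of 7 Leydig cell markers lower (median -2.56), and their part was not tested. Without Smg6-cKO Spc library 1 or 3 the higher calls numbered 2, and without Smg6-cKO RS library 2 there was 1. Kanga11a was also called lower (-2.03, SE 0.70), and that call was lost without Smg6-cKO Spc library 2 (-1.1, adjusted p = 0.186) and without any 1 of the 3 Smg6-cKO RS libraries (adjusted p = 0.0786 to 0.0822).

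The genotype difference itself differed between RS and Spc in a part of the subfamilies by the interaction term. In 1 (0.535%) it was higher in RS and in 21 (11.2%) lower, against a background of 18.6% and 19.0% over all features, with a DNA median of -0.47 and a median of -0.10 over all features. The comparisons share libraries, so their values are set side by side. The lower count was 12 or 13 without Smg6-cKO Spc library 2, CTRL Spc library 2, Smg6-cKO RS library 3 or CTRL RS libraries 1 or 3, and 36 without CTRL Spc library 1. With library size scaling 2 (1.07%) were lower and 11 (5.88%) higher, against 2.69% and 39.4% of all features, and with TMM over elements alone 2 were lower and 2 higher, against 1.78% and 1.68% of elements of any class. The interaction was also positive for all 9 Sertoli cell markers (median 3.46), 6 of 10 macrophage and 4 of 5 erythroid markers and negative for 7 of 8 round spermatid and 6 of 10 late spermatid markers, and their part was not tested.

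Charlie19a, MER58D and Zaphod2 kept their interaction call under all 3 scalings and with each library left out. Charlie19a was lower in Smg6-cKO in Spc (-1.58), while in RS it had 119.4, 154.0 and 90.0 normalized counts in Smg6-cKO and 127.4, 152.2 and 150.8 in CTRL (log2 fold change -0.24, SE 0.24, adjusted p = 0.40), an interaction of 1.23 (SE 0.33, adjusted p = 0.0127). MER58D was at -0.52 in Spc (SE 0.17, adjusted p = 0.0585) and -2.31 in RS, an interaction of -1.89 (SE 0.22, adjusted p = 0.000333). Zaphod2 was at 0.30 in Spc (SE 0.22, adjusted p = 0.361) and -1.19 in RS, an interaction of -1.59 (SE 0.27, adjusted p = 0.00148). Kanga1d was also lower (-1.28, SE 0.33, adjusted p = 0.0108), as were MER20 (-0.69), MER58C (-0.61), MER5A (-0.70) and RCHARR1 (-0.56) of the most counted subfamilies. None of these 5 calls held with library size scaling or with TMM over elements alone, and those of MER20, MER5A and RCHARR1 were also lost without some single libraries. The Kanga1a interaction did not pass (-0.89, SE 0.39, adjusted p = 0.0879).

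**Figure D4:**
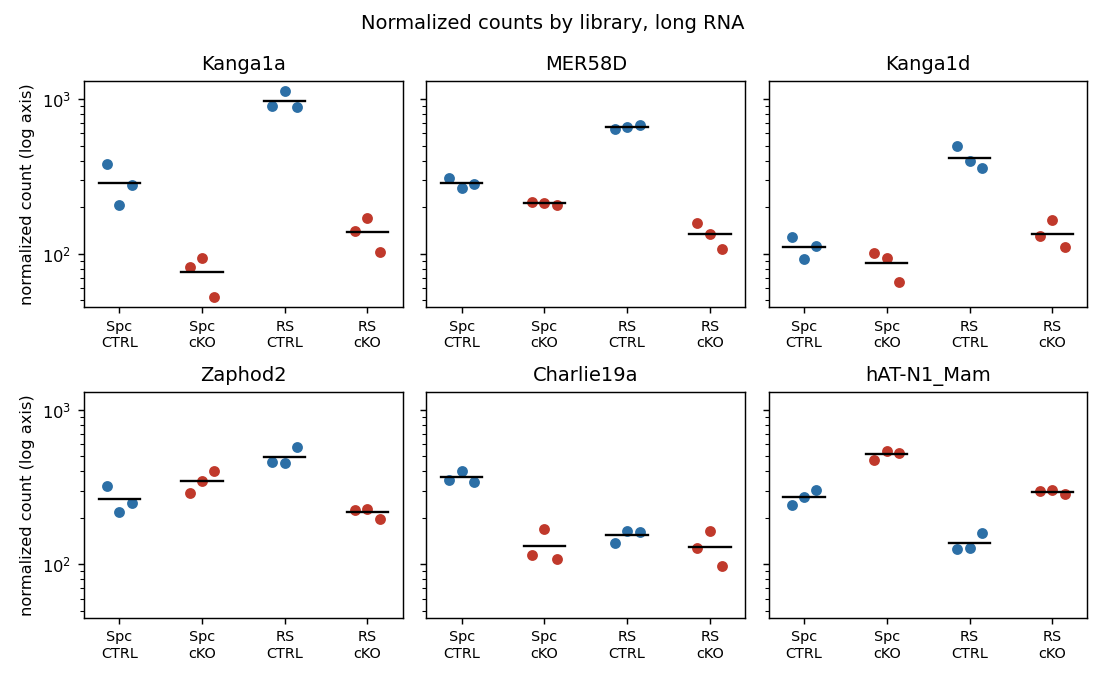
Normalized counts (log axis, Spc and RS scaled together) of Kanga1a, MER58D, Kanga1d, Zaphod2, Charlie19a and hAT-N1_Mam in each Spc and RS library, by genotype; each point is 1 library and the bar is the group mean. Kanga1a, Kanga1d and MER58D are high in the 3 CTRL RS libraries and low in the 3 Smg6-cKO RS libraries, and Charlie19a is high in the CTRL Spc libraries alone.

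In small RNA of Spc, 15 of 126 subfamilies (11.9%) were higher and 18 (14.3%) lower in Smg6-cKO, against a background of 19.5% and 20.5% over the 960 features of the repeat table. The median log2 fold change was 0.16 for DNA transposons and 0.11 for all features. In small RNA of RS, 7 of 115 (6.09%) were higher and 16 (13.9%) lower, against 11.4% and 14.8% over 919 features, with medians of 0.06 and 0.11. These counts depended on the scaling. In Spc, scaling to the library total gave 35 higher (27.8%) and 9 lower (7.14%), against 33.6% and 12.3% of all features, and scaling to miRNA counts gave 64 higher (50.8%) and 4 lower (3.17%), against 54.0% and 3.33%. In RS, the library total gave 20 higher (17.4%) and 5 lower (4.35%), against 27.0% and 7.62%, and miRNA counts gave 3 higher (2.61%) and 15 lower, against 2.18% and 13.9%. In RS, the lower count was 27 without Smg6-cKO library S16, 9, 8 and 7 without CTRL libraries S18, S19 and S20, and the higher count was 2 without S15 and 3 or 4 without a CTRL library. In Spc the higher count was 9 without CTRL library S27. Of the subfamilies lower in Smg6-cKO, 10 were called in both fractions, which is 55.6% of the 18 in Spc and 62.5% of the 16 in RS. They are 8.70% of the 115 subfamilies tested in both, and of all 908 features tested in both 12.8% were lower in both. Of those higher, MER5C and Tigger5 were called in both, 1.74% of the subfamilies against 7.38% of all features.

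Charlie19a had the lowest fold change among subfamilies with a mean of at least 20 normalized counts. In Spc small RNA it had 180.5, 143.9, 166.9, 159.1 and 123.5 normalized counts in Smg6-cKO and 1079.9, 984.0, 981.8, 856.2 and 902.1 in CTRL (log2 fold change -2.64, SE 0.10, adjusted p = 1.12e-10). In RS small RNA it had 217.6, 155.4 and 168.7 against 1031.3, 1103.8 and 1064.1 (log2 fold change -2.56, SE 0.15, adjusted p = 5.96e-05). No Smg6-cKO library came near a CTRL library in either fraction. MamTip2, a hAT-Tip100 element, had 303.4, 212.8, 302.1, 337.8 and 282.5 against 754.7, 762.0, 710.6, 639.0 and 701.7 in Spc (log2 fold change -1.31, SE 0.11, adjusted p = 1.56e-07). In RS it had 312.2, 306.2 and 318.5 against 762.6, 779.2 and 766.8 (log2 fold change -1.30, SE 0.10, adjusted p = 0.000117). The groups of MamTip2 were again fully apart.

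MER58B of the hAT-Charlie family was lower by -0.79 in Spc (SE 0.10, adjusted p = 2.36e-05) and -0.97 in RS (SE 0.14, adjusted p = 0.00121). Its Spc call was lost with scaling to miRNA counts, and its RS call held under all 3 scalings. ORSL-2b, another Tip100 element, had 1 to 6 counts per Smg6-cKO Spc library and 9 to 40 per CTRL Spc library, and 1, 2 and 4 against 12, 17 and 46 in RS. Charlie19a, MamTip2 and ORSL-2b were lower in both fractions under all 3 scalings, that of the library total and that of miRNA counts included, and with each library left out. MER44D in RS had 0, 0 and 1 counts in Smg6-cKO and 9, 7 and 13 in CTRL, and ORSL-2a in Spc had 0 or 1 count per Smg6-cKO library and 3 to 12 per CTRL library. With such counts no fold is given.

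Tigger5 was higher in Smg6-cKO in both fractions. It had 69.6, 51.4, 57.5, 73.6 and 60.9 normalized counts against 25.3, 27.6, 24.4, 31.9 and 14.6 in Spc (log2 fold change 1.34, SE 0.18, adjusted p = 2.88e-05), and 61.5, 57.1 and 60.5 against 21.0, 31.0 and 35.4 in RS (log2 fold change 0.99, SE 0.20, adjusted p = 0.0081). All Smg6-cKO libraries were above all CTRL libraries. The RS call was lost with scaling to miRNA counts (0.72, adjusted p = 0.0848). Charlie2b (0.89, SE 0.14) and MER5C (0.82, SE 0.23) were also higher in Spc, and MER81 (1.32, SE 0.28) in RS. MER104 in RS had 3, 3 and 4 counts in Smg6-cKO and 0 in each CTRL library.

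FordPrefect in small RNA of RS depended on the library. Its Smg6-cKO libraries had 176.6, 42.3 and 237.1 normalized counts against 38, 31.0 and 58.0 in CTRL (log2 fold change 1.80, SE 0.54, adjusted p = 0.0398), so library S16 lay within the CTRL range. The fold change was 2.21 without S16, and the call was lost without each of the other 5 libraries (adjusted p = 0.0795 to 0.136). In CTRL animals, small RNA of FordPrefect was lower in RS than in Spc (165.2, 214.8, 233.1, 222.8 and 228.0 in Spc; log2 fold change -2.40, SE 0.37, adjusted p = 0.000386). Library S16 also stood apart in MER20, with 5667 normalized counts against 12811 and 15062 in the other Smg6-cKO RS libraries and 16870 to 17632 in CTRL.

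**Figure D5:**
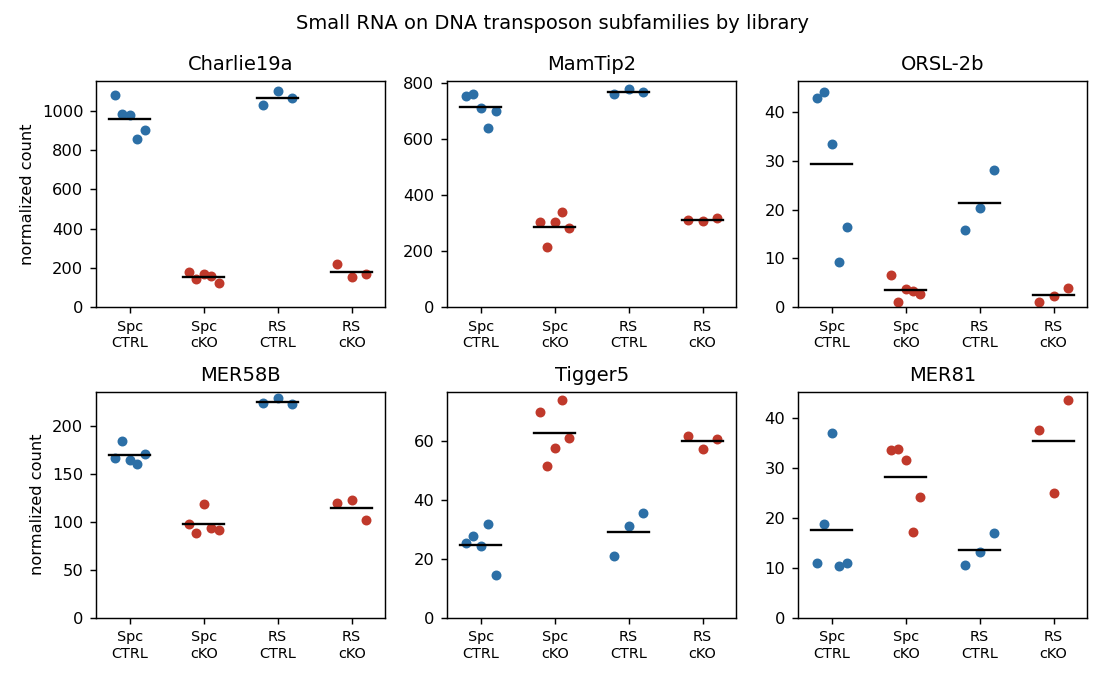
Normalized small RNA counts (linear axes from 0, 1 scale per panel) of Charlie19a, MamTip2, ORSL-2b, MER58B, Tigger5 and MER81 in each Spc and RS library, by genotype, with Spc and RS scaled separately; each point is 1 library and the bar is the group mean. The first 4 are lower in every Smg6-cKO library than in every CTRL library of the same fraction, Tigger5 is higher in both fractions, and MER81 overlaps in Spc and not in RS.

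Between the stages in CTRL small RNA, 10 of 139 subfamilies (7.19%) were higher in RS and 4 (2.88%) lower, against a background of 7.91% and 9.26% over 1037 features, with medians of 0.09 and 0.04. Scaling to the library total gave 6 higher (4.32%) and 5 lower (3.60%), against 4.53% and 11.9%, and scaling to miRNA counts gave 45 higher (32.4%) and 1 lower (0.719%), against 32.7% and 0.868%. Charlie1b (0.65, SE 0.11, adjusted p = 0.000732) and Tigger1 (1.22, SE 0.23, adjusted p = 0.00136) were higher under all 3 scalings and with each library left out, and FordPrefect was lower. The higher count was 2 to 6 without any 1 library other than S16, S17 and S22, and 21 without S16, and the lower count was 2 without S18, S19, S20 or S26.

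Long and small RNA of the same subfamily did not always move together. Charlie19a was lower in both kinds of RNA in Spc, and in RS its small RNA was lower by -2.56 while its long RNA was at -0.24. MamTip2 was lower in small RNA in both fractions, and its long RNA was at -0.09 in Spc (SE 0.12, adjusted p = 0.642) and 0.06 in RS (SE 0.14, adjusted p = 0.734). MER58D was lower in long RNA of RS by -2.31 and at -0.40 in small RNA (SE 0.22, adjusted p = 0.232). FordPrefect was lower in long RNA of RS, and its higher call in small RNA of RS, with library S16 within the CTRL range, was lost without each of 5 of the 6 libraries. Of subfamilies lower in Smg6-cKO RS, 5 were called in both kinds of RNA (MER2, MER58B, MER5A, MER5A1 and ORSL-2b), which is 7.14% of the 70 in long RNA and 31.2% of the 16 in small RNA. That is 4.35% of the 115 tested in both, against 8.31% of the 794 elements of any class tested in both. None of these 5 was lower in long RNA of RS under all 3 scalings. In Spc, 1 was called in both kinds of RNA (Charlie19a), 50% of the 2 and 5.56% of the 18, or 0.794% of those tested in both against 0.608% of 823 elements. Long and small RNA differ in library type and normalization, so the difference between them was not tested.

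Genes derived from transposases, a list of 30 of which 29 were tested, are host genes with domains of transposase origin, such as the centromere protein gene Cenpb (pogo-like), the Tigd and Pgbd genes and the THAP and ZBED genes. In Spc, with 6.90% higher and 10.3% lower against 11.6% and 11.7%, Qrich1 (0.40, SE 0.06) and Zmym2 (0.32, SE 0.09) were higher and Cenpb (-1.04, SE 0.32), Gtf2ird2 (-0.89, SE 0.16) and Zbed3 (-0.33, SE 0.10) lower in Smg6-cKO. With scaling to the library total Cenpb (adjusted p = 0.0611) and Zbed3 (adjusted p = 0.0734) were not called. In RS, 11 (37.9%) were higher and 7 (24.1%) lower, near the 35.3% and 30% of all features, with the highest fold changes in Pgbd5 (2.05, SE 0.65), Tigd3 (1.88, SE 0.48) and Thap3 (1.55, SE 0.36), and the lowest in Naif1 (-1.07, SE 0.09), Zbed3 (-0.81, SE 0.09) and Tigd5 (-0.72, SE 0.23). With scaling to the library total, where 52.5% of all features were higher and 16.1% lower, 21 of the 29 were higher and 1, Naif1, lower (-0.51, adjusted p = 0.000991). In CB, Cenpb (3.87, SE 0.80) and Pgbd5 (3.00, SE 0.46) were higher, with SDs of 582.0 and 101.3 around Smg6-cKO means of 413.9 and 139.9, and Zmym4 (-0.59, SE 0.18) was lower, 6.90% and 3.45% of the list against 12.3% and 15.1% of all features. The call of Zmym4 was lost with scaling to the library total (-0.68, adjusted p = 0.0642).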

How the data were processed

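Long RNA libraries of spermatocytes, round spermatids and chromatoid bodies and small RNA libraries of both cell fractions were analysed. The authors aligned long reads with STAR (2.7.1a in the submitters' processing notes) and, per the study's methods, counted genes and repeat subfamilies with TEtranscripts, which shares multi-mapped reads among copies and counts by strand. These deposited tables hold counts, whole numbers per gene or subfamily. For small RNA, the authors trimmed reads with cutadapt 2.8, aligned them with HISAT2 2.1.0 and assigned them to mm10 repeats with featureCounts (2.0.1 in the same notes). The study's methods give other versions of STAR and featureCounts for these libraries. Its deposited values are expected counts, fractions of reads that were rounded to whole numbers here. Strand in the small RNA counting is not given in the sources used here.

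DNA transposon rows were taken by their class name. Features with at least 10 counts in total entered edgeR 4.0.16 (TMM over all rows, quasi-likelihood test, Benjamini-Hochberg adjustment over all features, adjusted p at most 0.05). Spc, RS and CB were fitted separately, and the long RNA stage comparisons and interaction in 1 fit of 12 Spc and RS libraries. The small RNA stage comparison came from 1 fit of all 16 small RNA libraries, both genotypes included. SE is the fold change over the root of F. The alternatives were DESeq2 1.42.0, 2 filters, library size scaling, TMM over elements alone (small RNA: scaling to miRNA counts), leaving out each library, a replicate block and fits of the compared libraries only. The fits were tested on simulated data. Shares were compared by exact permutation.

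The subfamilies and lists were chosen with earlier results of these data known. Named were the 5 highest and 5 lowest called subfamilies at 100 or more normalized counts (3 and 3 for the interaction and, at 20 or more, for small RNA), those called past 1.5 on the log2 scale, the 8 most counted in CTRL, and at most 3 genes each way of the transposase list. Others were named after their values were seen, where a count or contrast turned on them: those called under every scaling, or called in both of 2 comparisons. CB and small RNA columns could be mapped to groups but not to single samples, and the libraries are named by their column. The study's methods name 3 biological replicates per cell type, with the same samples used for small RNA, whereas the labels and the table hold 5 Spc small RNA libraries per genotype. Which of these 5 share an animal or preparation is not given in the sources used here, so some may be technical repeats, and p-values with n = 5 may then be too small. The labels do not say that replicates are separate animals, so p-values measure the spread between these libraries, which may be partly technical. Exact p-values and counts cover counting and sample spread only.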

Additional observations from a re-analysis of the deposited data

Results flagged for a closer look

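The genotype difference differed between RS and Spc by the interaction test in the following named subfamilies, given as the RS log2 fold change minus that of Spc: Charlie19a 1.23, Kanga1d -1.28, MER20 -0.69, MER58C -0.61, MER58D -1.89, MER5A -0.70, RCHARR1 -0.56 and Zaphod2 -1.59. Charlie19a, MER58D and Zaphod2 were also called with scaling to the library total and with TMM over elements alone. The other 5 were called with neither, and with scaling to the library total MER58C and RCHARR1 were at 0.02 and 0.07.

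Single libraries stood apart from the others of their group in 6 of 53 groups tested by Dixon's criterion, which chance alone flags in about 1 of 20. In CB, CTRL library MVHCTRL2 had 213.0 normalized counts of Zaphod. In small RNA of Spc, 1 CTRL library had 3.313 normalized counts of MER117, 1 Smg6-cKO library had 0.0 and 1 CTRL library 13.18 of ORSL-2a, and for RCHARR1 1 Smg6-cKO library had 618.8 and 1 CTRL library 487.7.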

How the results depend on the processing

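Counts that moved and called values that turned are given by setting, and the cause was not tested. Values that changed sign with no call are not all listed. Among those left out are some with no filter and some with only the compared libraries fitted. DESeq2 gave 4 lower subfamilies in Spc, 1 higher in RS, 2 higher for the interaction and 4 higher in small RNA of RS. Library size scaling gave, as higher and lower, 14 and 15 in RS, 11 and 48 in CTRL RS against Spc, 11 and 2 for the interaction, 35 and 9 in small RNA of Spc and 20 and 5 in that of RS, and 6 higher between the stages in small RNA. It turned RCHARR1 (0.04) and URR1B (0.11) in RS, MER58C (-0.14), MER5A (-0.50), URR1A (-0.50) and URR1B (-0.51) between the stages, MER58C (0.02) and RCHARR1 (0.07) in the interaction and URR1B (0.01) in small RNA of Spc. TMM over elements alone gave 2 and 5 in Spc, 16 and 24 in RS, 14 lower in CB, 29 and 56 in CTRL RS against Spc, 23 higher in Smg6-cKO RS against Spc and 2 and 2 for the interaction, and turned MER2 (-0.20), MER58C (-0.06), MER5A (-0.41), RCHARR1 (-0.19), URR1A (-0.41) and URR1B (-0.42) between the stages. Scaling to miRNA counts gave 64 and 4 in small RNA of Spc, 3 higher in that of RS and 45 and 1 between the stages, and turned MER20 (0.43), MER5A (0.38) and URR1B (0.42) in Spc and MER112 (0.04) between the stages. At least 10 counts in 3 libraries left 21 lower in CB, and fitting the compared libraries only left 2 higher in Smg6-cKO RS against Spc. As a share of all counts, the RS difference was 0.00201 percentage points. Leaving out 1 library in turn gave 1 to 2 higher and 41 to 84 lower in RS, 4 to 77 lower in CB, 1 to 8 higher in Smg6-cKO RS against Spc, 1 to 2 higher and 12 to 36 lower for the interaction, 9 to 17 higher in small RNA of Spc, 2 to 8 higher and 7 to 27 lower in that of RS, and 2 to 21 higher and 2 to 5 lower between the stages in small RNA.

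The labels do not say whether the replicate numbers pair the samples. The correlations of deviations of same-numbered libraries ran from -0.17 to 0.53. For Smg6-cKO Spc with RS they were -0.04, 0.53 and 0.26. So few values cannot decide whether same-numbered libraries share a preparation. With the replicate block, 1 was higher and 2 lower in Spc, 1 higher and 61 lower in RS, 49 and 21 in CTRL RS against Spc, 5 and 27 in Smg6-cKO and 1 and 15 in the interaction. For CB and small RNA no paired analysis was possible because their columns carry no replicate number of the labels.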
